A study of Drosophila melanogaster with 2 samples.

Results

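The core of the fruit fly circadian clock is encoded by a small set of genes, and 10 of them were followed through the lists of genomic regions: Clk, cyc, per, tim, vri, Pdp1, cwo, cry, sgg and dco. They were picked by name in the Ensembl annotation, out of 13945 protein-coding genes on the 6 chromosomes and arms that the lists cover. A region was counted for a gene when its summit, the position of highest signal given by the authors, lay between 2000 bp upstream of the gene and the gene's end. The data are 2 ChIP-seq libraries, biological replicates of 1 group, prepared from entire pupae of Drosophila melanogaster aged 48 h, sexes mixed, so clock cells and all other cells were sampled together. Both libraries have the same donor entry, a single stable transgenic line in which CG8301 is fused at its C terminus to GFP. The labels contradict each other: CG8301 stands as the antibody, but the description speaks of an input control. For this reason no region is attributed to CG8301 here. There is no second genotype, time point or treatment, so no contrast between conditions was possible and nothing below carries a p-value.

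The authors deposited 30000 regions for each replicate, 30000 for the replicates pooled, and 8005 that passed their threshold of the irreproducible discovery rate (IDR), a measure of how well replicates rank the same regions. The 8005 IDR regions were exactly the 8005 strongest of the pooled list. Rank 1 is the strongest region of a list, by the authors' own signal value, whose scale is not stated. IDR signal values ran from 143 to 5758. The depth behind each region is unknown.

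In the clock, the proteins CLK and CYC pair and bind E-boxes, short elements with the letters CACGTG, to activate per, tim, vri, Pdp1 and cwo. PER and TIM build up, enter the nucleus and shut CLK and CYC down, while the kinases encoded by dco and sgg set the pace of this delay. VRI represses and PDP1 activates Clk in a further loop, CWO competes at E-boxes, and CRY is the blue-light receptor that leads TIM to degradation. The same loop runs in brain neurons and in many peripheral tissues, and vri, Pdp1, sgg and dco also act in development outside the clock.

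The number of regions differed widely between the 10 genes, from 9 at vri to 0 at 4 genes. Of the 10 genes 6 held an IDR summit, against 27.6% of all protein-coding genes. They shared 30 IDR summits, of which vri held 9, Pdp1 8, sgg 7, dco 4, and per and cry 1 each. No IDR summit lay at tim, Clk, cyc or cwo. In the pooled list 8 of the 10 had a summit, all but Clk and cyc, against 42.2% of all genes. An IDR summit within 500 bp of an annotated start, called a promoter summit here, was found at the same 6 genes, against 16.2% of all protein-coding genes. That share takes no account of the number of starts. The 10 genes have 28 promoters, beside 18922 for all 13945 genes.

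Longer genes meet more summits, and these genes differ widely in length. The windows of vri, Pdp1 and sgg were at least 20 kb long, and all 3 held IDR summits, as did 67.9% of all genes of that length. Among windows of 5 to 20 kb, 3 of 6 clock genes held one, against 38.2%. The only clock window under 5 kb, that of cyc, held none, against 17.1%. The share with any summit was thus nearer to that of genes of like length than the plain 27.6% shows. Numbers of summits differed more. Per 100 kb of window the clock genes held 14.8 IDR summits and all protein-coding genes 6.76. For windows of at least 20 kb the values were 18.5 for the 3 clock genes and 6.70 for all genes, and for 5 to 20 kb they were 8.74 and 7.64. Of all genes, 126 had as many IDR summits as vri or more, 166 as Pdp1, 222 as sgg and 529 as dco. Among the 1143 genes with windows of at least 20 kb, 208 (18.2%) had 7 or more. The long clock genes thus stood in the upper part of their length class, and many other genes stood there with them.

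**Figure D1:**
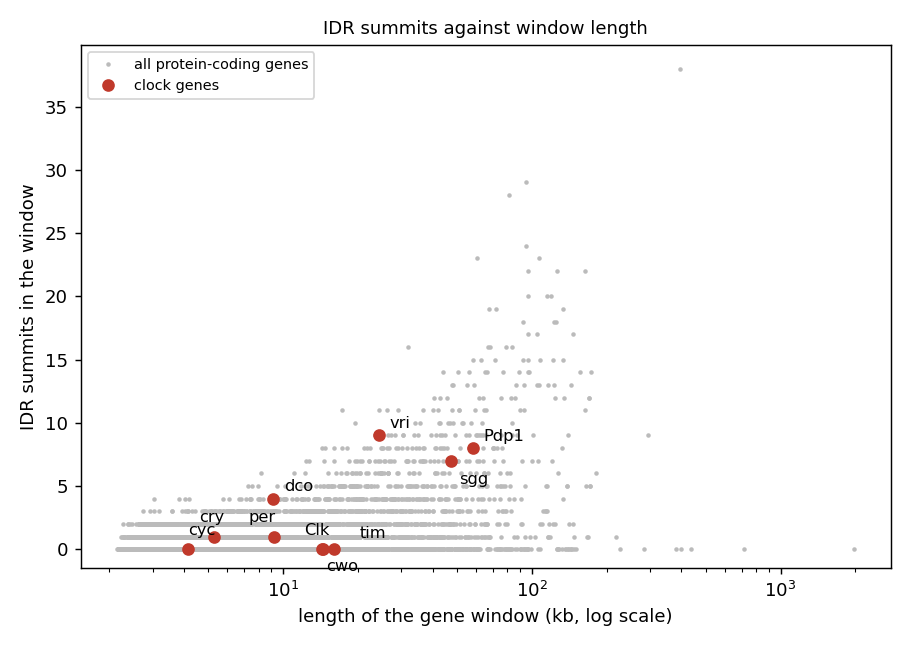
IDR summits in each gene's window against the length of the window in kb (log scale), with 1 grey point for each of the 13945 protein-coding genes and the 10 clock genes in red. The genes vri, Pdp1, sgg and dco sit above most genes of their length with 9, 8, 7 and 4 summits, while tim, Clk, cyc and cwo lie at 0.

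The strongest IDR region of each of the 6 genes is given as the 121 bases centred on its summit, 5′ to 3′ on the strand of the gene, with the 11 bases at the summit in capitals, because these are the places where the libraries had most signal at the clock genes. The letters are from the NCBI reference assembly that dm6 denotes, and none of the windows overlaps an annotated exon.
sgg (chrX:2646377-2646497, plus strand, rank 187): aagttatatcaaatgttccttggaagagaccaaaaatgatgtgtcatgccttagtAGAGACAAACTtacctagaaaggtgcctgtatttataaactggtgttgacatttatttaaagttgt
vri (chr2L:5293311-5293431, plus strand, rank 469): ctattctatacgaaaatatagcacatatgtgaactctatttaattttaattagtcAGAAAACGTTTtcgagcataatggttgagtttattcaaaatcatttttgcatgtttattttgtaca
cry (chr3R:19211866-19211986, plus strand, rank 798): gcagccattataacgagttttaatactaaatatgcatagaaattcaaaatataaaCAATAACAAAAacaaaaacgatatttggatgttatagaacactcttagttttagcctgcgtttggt
Pdp1 (chr3L:7851010-7851130, minus strand, rank 1051): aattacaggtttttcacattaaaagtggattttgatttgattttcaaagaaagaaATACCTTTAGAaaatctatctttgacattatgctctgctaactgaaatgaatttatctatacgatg
dco (chr3R:31059137-31059257, minus strand, rank 1247): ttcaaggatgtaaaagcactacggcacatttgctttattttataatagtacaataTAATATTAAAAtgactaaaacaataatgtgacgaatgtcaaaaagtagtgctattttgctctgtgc
per (chrX:2685330-2685450, plus strand, rank 7749): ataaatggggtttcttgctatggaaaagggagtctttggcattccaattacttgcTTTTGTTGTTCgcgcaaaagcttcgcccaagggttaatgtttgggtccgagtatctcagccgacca

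The 5 stronger windows are rich in A and T, with a GC content of 25.6% at vri, 26.4% at Pdp1, 28.1% at cry, 28.9% at dco and 33.1% at sgg. The weakest, at per, holds 45.5%. Within 50 bp of the summit the 30 clock gene regions had a median GC content of 33.7%, from 19.8% to 53.5%, beside a median of 30.7% (quartiles 25.7% and 35.6%) over all 8005 IDR regions.

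The activator genes had no regions in the pooled list at all. Clk (FBgn0023076, 3L, 7763233 to 7775603, minus strand) encodes a bHLH-PAS transcription factor and has 5 transcripts from 2 annotated starts. None of the 4 lists held a summit anywhere in its window of 14371 bp. The nearest IDR summit lay 7968 bp upstream of the outer Clk start (3L, 7783463 to 7783674, signal 266, rank 4505), ranked 5806 in replicate 1 and 4081 in replicate 2. Clk is the gene with the nearest annotated start to that summit, although it falls outside the window used here.

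At cyc the replicates disagreed. The gene (FBgn0023094, 3L, 19813770 to 19815938, minus strand) encodes the partner of CLK and has 1 transcript. Replicate 1 listed a region with its summit 325 bp downstream of the start, at rank 6064 and signal 84.4, and a weaker one 122 bp downstream at rank 20625. Replicate 2 and the pooled list held neither. An IDR summit lay 2024 bp upstream of the cyc start, 24 bp beyond the window, at rank 3917 (8295 in replicate 1 and 2900 in replicate 2). That summit was 5 bp downstream of the start of Fibp and 212 bp upstream of the start of Deaf1, so the starts of both neighbours are closer to it than that of cyc.

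The repressor gene per (FBgn0003068, X, 2685580 to 2692780, plus strand) has 2 transcripts from 1 start and a single IDR region (2685185 to 2685594). Its summit was 190 bp upstream of the start, with signal 149 and rank 7749, close to the end of the IDR list. Replicate 1 ranked it 7747 and replicate 2 ranked it 8228, which is outside the 8005 strongest of that replicate. No summit of any list except a replicate 1 region at rank 29162 lay within the gene body. An E-box, the element bound by CLK and CYC, lay 527 bp upstream of the start and 337 bp from the IDR summit.

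At tim (FBgn0014396, 2L, 3493986 to 3508119, minus strand), whose product pairs with PER, none of the 3 annotated starts had a pooled summit within 500 bp. All 5 pooled summits lay far into the gene of 14134 bp, from 9316 to 12457 bp downstream of its outer start. The strongest (signal 112, rank 9812) was 8415 bp downstream of the nearest start, in an intron of 3442 bp shared by 8 of the 10 transcripts. That region ranked 8679 in replicate 2 but 17860 in replicate 1. Replicate 2 alone listed a start region, 145 bp downstream of the start of 6 transcripts, at rank 19323. An IDR summit at rank 7862 lay 270 bp past the end of the gene, and the replicates ranked it very differently, 19820 in replicate 1 and 6181 in replicate 2.

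CWO is a bHLH-Orange repressor, encoded by cwo (FBgn0259938, 3R, 10388258 to 10400752, plus strand). Of the 4 genes without an IDR summit, cwo had the best-ranked pooled summit inside its window. The pooled list held 8 summits there. The first of them by strength, in the first intron 2824 bp downstream of the only start, had signal 118 and rank 9422, with ranks of 9812 and 9591 in the replicates. The start itself had a summit 64 bp downstream at rank 9639, with ranks of 10317 and 10589. Both replicates thus placed these 2 regions below their 8005 strongest. Of the other 6, 4 were in the first intron, 1 in the first exon and 1 upstream of the gene, at ranks from 11436 to 22286.

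**Figure D2:**
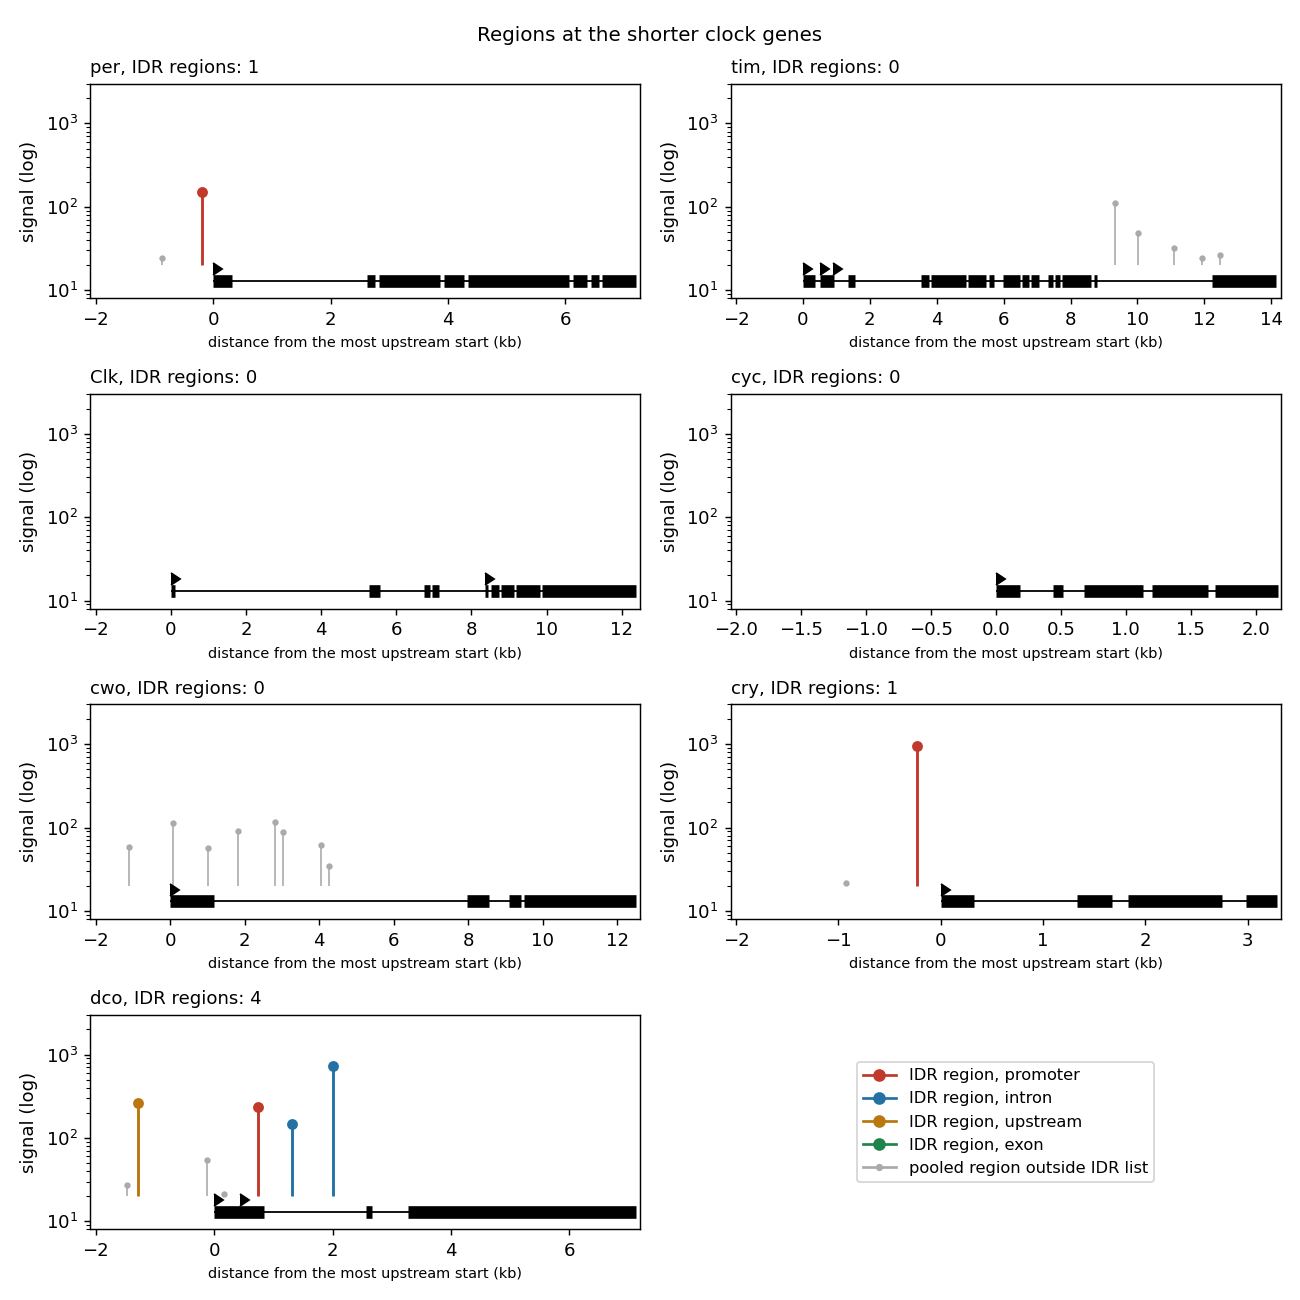
Summits of the pooled list at the 7 clock genes with windows under 20 kb, by distance from the most upstream start in kb, with the height giving the authors' signal (log scale). Black boxes are exons, arrowheads are annotated starts, coloured stems are IDR regions and grey stems are pooled regions outside the IDR list; Clk and cyc have none, tim has 5 grey stems far from its starts, and the red stem of cry reaches 953 and that of per 149.

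The gene vri (FBgn0016076, 2L, 5288944 to 5311223, plus strand), which encodes a bZIP repressor, had the most IDR summits of the 10. Of its 9 summits 7 were intronic, 1 at a promoter and 1 upstream. It has 3 annotated starts. The outer one serves vri-RE, the middle one, 10703 bp further, serves vri-RC, and the inner one, at 16706 bp, serves vri-RA, vri-RD and vri-RF. In vri-RE an intron of 18055 bp, the first of 2, spans the middle and inner starts, and 8 of the 9 summits lay in it.

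The strongest vri region (5293160 to 5293574, signal 1239, rank 469) was in this intron, 4427 bp downstream of the outer start, at rank 696 in replicate 1 and 421 in replicate 2. A second summit 3823 bp downstream had signal 621 and rank 1572, with 1696 and 1455 in the replicates. A further pair stood 2844 and 2180 bp upstream of the middle start, at ranks 994 and 1320 with signals of 853 and 703. Both regions of this pair ranked higher in replicate 2 (652 and 802) than in replicate 1 (2010 and 3819). The 5 strongest vri regions thus lay between starts or outside the gene, and none was within 1000 bp of a vri start. The summit at rank 1320 was 461 bp from the start of lncRNA:CR45730, a noncoding RNA gene inside the intron.

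Of the vri starts only the middle one had an IDR summit within 500 bp. This summit was 195 bp upstream, with signal 316 and rank 3684 (6671 in replicate 1 and 3033 in replicate 2). The outer and inner starts had pooled regions below the IDR threshold, at 496 bp upstream (rank 13385) and 58 bp downstream (rank 13146). The upstream summit, 1217 bp before the outer start (signal 506, rank 2086, with 2259 and 2194 in the replicates), lay inside lncRNA:CR44743 and 121 bp upstream of lncRNA:CR44742. The remaining summits were in introns at ranks 4253, 5629 and 7032. The last of these is 1133 bp downstream of the inner start and is intronic in all 5 transcripts.

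Pdp1 (FBgn0016694, 3L, 7811458 to 7867369, minus strand) encodes the bZIP activator of Clk and has 13 transcripts from 4 annotated starts, spread over 39351 bp. Only the second start, used by 7 transcripts, carried IDR summits within 500 bp, and it carried 2. They were 196 bp downstream (signal 279, rank 4264) and 475 bp upstream (signal 274, rank 4369). The replicates ordered them differently: replicate 1 ranked the downstream one 3335 and the upstream one 11483, and replicate 2 ranked them 5418 and 3274.

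The other 3 Pdp1 starts had pooled summits that missed the IDR list, and for the outer one only narrowly. The first start had a region 367 bp upstream at rank 8066, with 8036 in replicate 1 and 8350 in replicate 2. The fourth start had one 173 bp upstream at rank 8482, and there the replicates differed, with ranks of 5027 and 14801. At the third start the best was rank 16385, 454 bp upstream.

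The strongest Pdp1 region (7850744 to 7851353, signal 823, rank 1051) was intronic, 4478 bp downstream of the second start, and ranked 1489 and 890 in the replicates. It lies in an intron of 9 of the 13 transcripts, between 33153 and 49017 bp long. Another intronic region 3469 bp downstream of the first start had signal 434 and rank 2539, with 2752 and 2479 in the replicates, and lies in the first intron of Pdp1-RF and Pdp1-RO. Of the other intronic summits, at ranks 6549, 7564 and 7574, the last was uneven between the replicates, with ranks of 4482 and 13632. The summit 1724 bp upstream of Pdp1 (rank 7174) was 51 bp downstream of the start of the divergent gene CG32365, so it is a promoter summit of that neighbour.

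**Figure D3:**
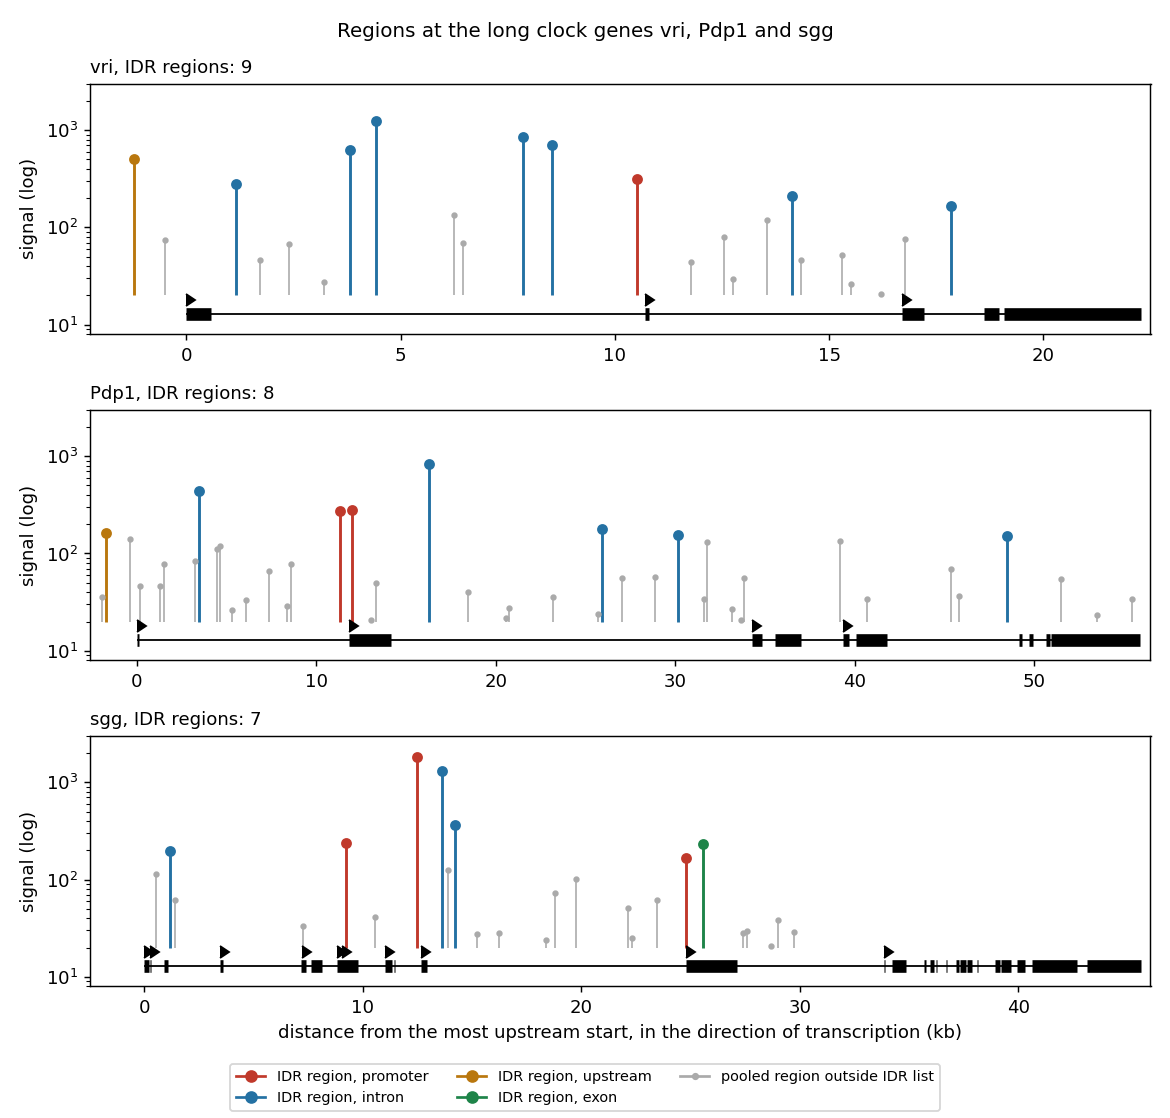
Summits of the pooled list at vri, Pdp1 and sgg by distance from the most upstream start in kb, with the height giving the authors' signal (log scale); boxes are exons and arrowheads annotated starts. Coloured stems are the 24 IDR regions and grey stems pooled regions outside the IDR list, and the tallest stems stand in introns at vri (1239) and Pdp1 (823) and just upstream of an internal start at sgg (1809).

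At cry, the light receptor gene (FBgn0025680, 3R, 19212154 to 19215442, plus strand), a single strong summit stood at the promoter. The region (19211745 to 19212134) had signal 953 and rank 798, and the replicates gave 743 and 886. Its summit was 228 bp upstream of the only start, which the annotation also gives to lncRNA:CR46393 on the same strand. The next region of the gene in the pooled list was at rank 29064, near the bottom of that list.

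The kinase gene sgg (FBgn0003371, X, 2633952 to 2679553, plus strand) encodes GSK-3, which phosphorylates TIM and also acts in Wingless signalling. It held the strongest region of the 10 genes. With 19 transcripts and 11 annotated starts, which form 10 promoters when starts at most 100 bp apart are joined, it also has the most alternatives. The strongest region (2646060 to 2646691, signal 1809, rank 187) had its summit 200 bp upstream of the start of sgg-RQ, an internal start 12685 bp into the gene. Replicate 1 ranked it 176 and replicate 2 ranked it 223, the closest to the top of any clock gene region in either list.

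Downstream of the same start, 2 more IDR summits followed, at 952 bp (signal 1289, rank 437, with 617 and 386 in the replicates) and 1531 bp (signal 363, rank 3145, with 4621 and 2357). All 3 summits around sgg-RQ are intronic in transcripts that start further upstream. At 2 neighbouring starts, of sgg-RR and sgg-RG, 1 shared summit lay 429 and 166 bp downstream, at rank 5017 (4517 and 5626 in the replicates). The start of sgg-RD and sgg-RP had a summit 2 bp upstream at rank 7015, with ranks of 5170 and 10663.

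The starts used by most sgg transcripts were not among those with IDR summits. The outermost start serves 6 transcripts, and its nearest IDR summit was 1188 bp downstream, intronic, at rank 5981. The replicates gave this region very different ranks, 6261 and 14800. The start of sgg-RM and sgg-RT, the last along the gene, had its nearest IDR summit 8287 bp upstream. One sgg summit (rank 5183, with 5402 and 5436 in the replicates) fell in an exon, 757 bp downstream of the start of sgg-RD and sgg-RP. It is coding in 3 transcripts and the only exonic summit outside a promoter among the 30.

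The gene dco (FBgn0002413, 3R, 31054085 to 31061210, minus strand), also called doubletime, encodes the casein kinase 1 that phosphorylates PER. With 4 IDR summits in a window of 9126 bp it had 43.8 per 100 kb, the highest density of the 10, followed by vri with 37.1. The strongest (31058944 to 31059379, signal 739, rank 1247) was 1576 bp downstream of the inner start, in an intron of all 5 transcripts, and ranked 1703 and 1057 in the replicates. A summit 299 bp downstream of the inner start, that of dco-RE, had rank 5068, with 6178 and 4585. The outer start, used by the other 4 transcripts, had no IDR summit within 500 bp, and its best pooled region was 123 bp upstream at rank 16517.

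Another dco summit stood 1279 bp upstream of the gene (signal 259, rank 4619, with 4637 and 5296 in the replicates), and the start of the divergent neighbour Sox100B was further away, at 2764 bp. The last, intronic at rank 7865, overlapped no region of replicate 1 at all, while replicate 2 ranked it 4352. It was the only one of the 30 missing from a replicate list.

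Of the 28 promoters of the 10 genes, 9 had an IDR summit within 500 bp (32.1%), against 15.2% of all 18922 promoters of protein-coding genes. A pooled summit was there at 19 of the 28, against 33.0%. The promoters of 1 gene are not independent, and sgg alone has 10 of the 28, a pair of which share 1 summit. The 30 IDR summits were divided into 9 at promoters, 17 in introns, 3 upstream and 1 in an exon. Promoters thus held 30.0% and introns 56.7%, close to the 31.9% and 60.4% among all 6572 IDR summits in windows of protein-coding genes. Of the 9 promoter summits 6 were upstream of the start. Upstream and exonic summits, 3 and 1 of the 30, stood beside 5.8% and 2.0% among all, and are too few to compare. Clock gene summits were placed by their own gene only, so the Pdp1 summit at the start of CG32365 counts as upstream. Among all genes such a summit can count as a promoter summit, so the shares are not strictly comparable. The likeness is thus limited to the promoter and intron shares.

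In strength the clock gene regions spanned the IDR list, with a median rank of 4317 (quartiles 1383 and 6407) beside 4003 for all IDR regions. Of the 30, 4 were among the strongest 800 of the 8005 IDR regions. By gene the median rank was 2086 for vri, 5017 for sgg, 5459 for Pdp1 and 4844 for dco. The regions of vri were thus the strongest as a group among the genes with several.

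The replicates held most of these regions, though at unequal ranks for some. Replicate 2 listed all 30 and replicate 1 listed 29, of which 25 and 27 were among the 8005 strongest of each list. Among the 8005 strongest of both replicates were 22 of the 30, beside 6231 of all 8005 IDR regions. Ranks in the replicates differed by less than 2-fold for 22 of the 29 found in both. Replicate 2 gave the better rank to 17 and replicate 1 to 12. All 9 vri regions were among those ranked better in replicate 2. Summits in the replicates lay a median of 15 bp, and at most 171 bp, from the pooled summit. Since the IDR list derives from the alignments of these same replicates and the control, its overlap with the replicate lists is no independent evidence.

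**Figure D4:**
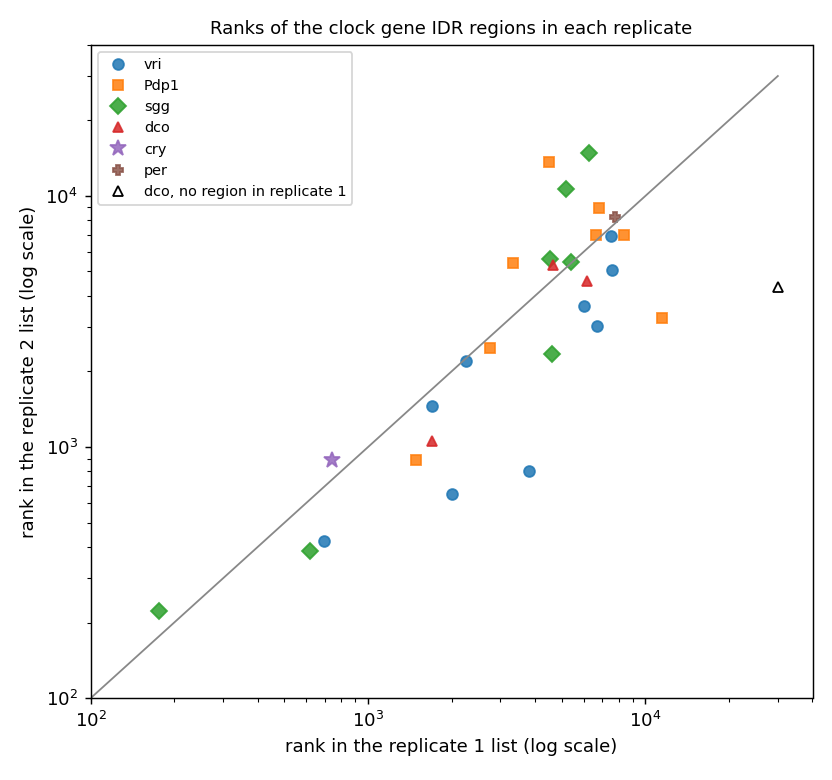
Rank of each clock gene IDR region in the replicate 1 list against its rank in the replicate 2 list (both log scales, lower is stronger), with 1 symbol per gene and the line of equal rank. The strongest region, at sgg, has ranks of 176 and 223; the open triangle at the right edge is the dco region that replicate 1 lacks.

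E-boxes were looked for because CLK, CYC and CWO bind them. The 10 windows held 50 matches to CACGTG, which reads the same on both strands, and 3 of these were within 200 bp of an IDR summit. The share of window sequence that lies this near a summit was not counted. The 3 of 50 thus cannot show whether E-boxes lay near summits or away from them. Of the genes per, Pdp1, cwo and dco had one in the 1000 bp upstream of their outer start, 4 of 10 beside 12.1% of all protein-coding genes. Within 50 bp of an IDR summit 1 of the 30 clock gene regions had the letters (3.3%), beside 0.44% of all 8005 IDR regions. Over the whole region 3 of the 30 had them, all at Pdp1, beside 2.90%. The match within 50 bp, 185 bp downstream of the second Pdp1 start in a noncoding first exon, was 11 bp from the summit at rank 4264. The 4 E-boxes below show that match beside others near starts, in 30 bases on the strand of the gene with the E-box in capitals.
Pdp1, second start (chr3L:7855348-7855377, minus strand, 11 bp from an IDR summit): ctaaacagaaagCACGTGtcactgccaagc
per (chrX:2685038-2685067, plus strand, 337 bp from an IDR summit): aaagccgccgctCACGTGgcgaactgcgtg
tim (chr2L:3507405-3507434, minus strand, 13704 bp from an IDR summit): acgttgtgattaCACGTGagccgatttccc
sgg (chrX:2637347-2637376, plus strand, 2222 bp from an IDR summit): gtgtgtgcgtgtCACGTGcgttgctctctc

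The other words searched were also found at few of these summits. TTATGTAA, with its reverse TTACATAA, is the core of the V/P box through which VRI and PDP1 act. It was within 50 bp of none of the 30 summits, beside 1.20% of all IDR regions. GAGAG, with CTCTC, the element of GAGA factor, was within 50 bp of 3 of 30, beside 9.33% of all IDR regions. CGCG, which served as a control word for GC content, was within 50 bp of 4 (13.3% beside 6.80%). These are counts of few regions, and no test was made of them.

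Genes that act on the clock from outside this set were counted in the same way. Among 13 kinase, phosphatase and protein turnover genes, 6 held an IDR summit in the window and 5 at a promoter. The shares of all protein-coding genes were 27.6% and 16.2%. The strongest promoter summits were at Fbxl4 (rank 1526), an F-box protein gene, at wdb (rank 1955) and mts (rank 4609), which encode subunits of protein phosphatase 2A, and at Bdbt (rank 4551), whose product binds the kinase encoded by dco. CkIIalpha and CkIIbeta, the subunits of the kinase CK2 that acts on PER, and slmb and jet, which serve the degradation of PER and TIM, had no IDR summit (these 4 were named after their values were seen).

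Of 11 regulators of transcription and translation, 6 held an IDR summit and 4 a promoter summit. These were Eip75B (rank 438), the ecdysone-induced nuclear receptor gene, Hnf4 (rank 1000), the coactivator gene nej (rank 4353) and Mef2 (rank 5673). Of 14 genes of clock neuron signalling and output, 3 held one, at qsm (rank 1626), norpA (rank 4327), the phospholipase C gene of phototransduction, and Lar (rank 5962). The neuropeptide gene Pdf, named after its value was seen, held no region in the pooled list. Beside the 27.6% of all genes, the first 2 sets thus had a summit in 6 of 13 and 6 of 11 genes, and the output set in 3 of 14. Promoter summits were at 5, 4 and 3 genes of these sets, beside 16.2% of all genes. The share of all genes rises with window length, from 17.1% under 5 kb to 67.9% at 20 kb and over. The sets were not split by window length, so the plain 27.6% is not the share of genes of like length. Per 100 kb of window they held 9.78, 12.6 and 2.18 IDR summits, beside 6.76 for all genes and 14.8 for the 10 clock genes. Single genes weigh heavily on these values. Eip75B alone held 20 of the 39 summits of the regulators, and nmo 7 of the 18 of the first set. In the output set, which had the lowest value, Lar held 1 summit in a window of 147447 bp.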

How the data were processed

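Regions were used as the authors deposited them: 1 list for each of the 2 replicates and 1 for the pooled replicates, described as peaks and background for IDR, and 1 IDR list, all on dm6. Per the labels, sonication gave fragments of 200 to 800 bp, and a control experiment is listed. Not given in the sources used here are the aligner, the peak caller and the threshold of the IDR. The deposited signal value of each region was used only as a rank within its list or to describe a region; the summit is the authors' offset from the region start. Regions are listed as deposited, so neighbouring regions can overlap and share a partner in a replicate list.

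Genes, transcripts and starts came from Ensembl release 115 (BDGP6, the assembly of dm6) without transposable elements, and sequence from the NCBI copy of that assembly. No region reached past the end of its chromosome in it. Starts at most 100 bp apart were joined into 1 promoter. Summits within 500 bp of a start of the gene were called promoter summits; others were exonic if any transcript had an exon there, and otherwise intronic or upstream. Positions are counted from 1. Replicate partners overlap by at least 1 bp, the one with the nearest summit being taken. Counting used Python 3.11.15 with pandas 2.3.3, checked on planted positions. The genes and lists were chosen with earlier results of these data known. All 10 genes are named with every IDR region, and of related lists the 4 strongest promoter summits. With 1 group and 2 replicates no test between groups was possible.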

Additional observations from a re-analysis of the deposited data

How the results depend on the processing

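Of 41 alternative values, 33 stayed within 1.5 times the reported one and 8 did not. One of the 8 is the share of regions with an E-box, 1 of 30 within 50 bp of the summit and 3 of 30 over whole regions. All 3 were at Pdp1, so the regions are not independent of each other. Over all 8005 IDR regions the share rose as well, from 0.44% to 2.90%. With the stronger 4002 IDR regions the summits in clock gene windows fell from 30 to 13, the intronic ones from 17 to 9, and the promoter summits from 9 to 3, at 3 genes in place of 6, while the share of all genes with a promoter summit fell from 16.2% to 9.7%. This setting uses fewer regions by construction. With all 30000 pooled regions the counts rose to 115, 77 and 21. The 8005 strongest regions of 1 replicate were also used in place of the IDR list. Without replicate 1, 5 genes had a summit, against 27.8% of all genes, and per was lost. Without replicate 2, 7 genes had one, against 28.5%, and cyc was gained. The summits in windows were then 26 and 34. Promoter summits were 7 and 11, at 5 and 7 genes, against 16.2% and 17.4% of all genes. Windows reaching 5000 bp upstream added cyc (7 genes, against 36.1% of all genes), as did counting any overlap (7, against 28.5%). Gene bodies alone left 4, without per and cry, against 14.9%. Promoter distances of 250 and 1000 bp gave 5 and 6 genes, against 11.7% and 20.4%. No paired analysis was possible because there is 1 group. Unknown depth limits every statement that a region is missing.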

Other observations

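A few values belong in no count above. The strongest region of the whole IDR list, at rank 1, lay 11100 bp past the end of per, outside its window, and was the nearest IDR summit to per apart from its own. It was 18300 bp from the per start, and no gene is assigned to it here. Around cry, the nearest IDR summit apart from its own was 22330 bp beyond the window, at rank 1049. At cwo the nearest was 6084 bp beyond the window, at rank 4603, and the annotated start closest to that summit was that of Rfx.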
